A study of Homo sapiens with 24 samples.

Results

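The TMEM97 knockout line SG12 was compared with the control-guide line SGCTRL after 3 days in medium labelled LPDS, an abbreviation that usually stands for lipoprotein-deficient serum. The members are the 3 SG12 and the 3 SGCTRL libraries of that medium, chosen by their labels, and they are 6 of the 24 libraries of the series. All cells are HGC27, an established human gastric carcinoma line labelled as epithelial. The labels give SGCTRL as wild type with a control guide, SG12 and SG21 as knockouts of TMEM97, and a further group as parental cells without a guide. Each line was grown in medium labelled FBS (usually fetal bovine serum) or LPDS, in high-glucose DMEM, with 3 replicates per line and medium. The series text calls the replicates independent but does not say which step was repeated, so a p-value speaks only for the spread between these samples. Whether a line is a single clone or a pool of cells, and where the guides cut, is not given in the sources used here. SG12 is therefore 1 line measured in replicate, and the text gives SG21 and the parental cells beside it.

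TMEM97, also known as the sigma-2 receptor, is a membrane protein of the endoplasmic reticulum and the endolysosomal system that binds the cholesterol transporter NPC1. When membrane cholesterol is low, the transcription factor SREBP2 (gene SREBF2) is released from the endoplasmic reticulum and raises the genes of cholesterol synthesis and uptake, and TMEM97 is among its targets. Cells deprived of lipoproteins depend on their own synthesis for cholesterol. The title of the series names cholesterol sensing, mitochondrial energetics and lipid synthesis, so the comparison asks how cells with and without TMEM97 differ in these programmes when outside cholesterol is scarce.

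The 6 libraries held 3.05 to 5.54 M reads on gene entries, out of 56.2 to 102 M uniquely aligned reads, and 94.3% to 94.5% of the uniquely aligned reads lay on no entry. The kit keeps strand, and the counts lay mostly on the strand opposite to the entry's name. GAPDH had a mean of 46.5 CPM (gene reads scaled to a common library size) under its own name in SGCTRL and 37770 CPM under ENSG00000269968, the entry on the other strand. A gene was therefore read through an entry whose exons overlap its own on the other strand, which is possible only for part of the genes, 2826 protein-coding ones here. Such a reading covers a stretch of the gene, so levels were compared between libraries and not between genes. The epithelial label could not be checked with the markers chosen for it, since 0 of 5 epithelial and 0 of 6 gastric markers had a reading. VIM, ZEB1 and SPARC, 3 of 5 mesenchymal markers, had one. Of the markers of other cells, 0 of 6 fibroblast, 0 of 5 leukocyte and 0 of 4 endothelial genes had one. In the longer gene lists used below, 3 of 23 epithelial and 3 of 13 fibroblast genes had a reading.

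A split between libraries runs along with the comparison and bears on every result below. Reads assigned to more than 1 gene made up 2.10% to 2.24% of the reads on genes in 8 libraries, which are all 6 of SGCTRL and replicates 2 and 3 of SG21 in LPDS. They made up 2.58% to 3.15% in the other 16 libraries, and 2.99% to 3.15% in SG12 in LPDS. SG12 and SGCTRL fall on opposite sides, so line and split cannot be told apart between them alone. Parental cells in LPDS lie on the same side as SG12, and each line keeps its side in both media apart from SG21. Values against parental cells and a fit with a term for the split are therefore given for many results. Values in FBS are given too, but SG12 and SGCTRL differ in the split there as well. They cannot separate line from split.

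Promoters of 4 sterol genes are shown to give the sequence in which SREBP2, and NF-Y, the CCAAT-binding factor it often acts with, are known to meet such genes. RefSeq promoters (GRCh38.p14, 250 bases before to 50 after the start) were found for 8 of the 10 lipid genes named individually, with 1 shown for each of HMGCS1, LSS, SREBF2 and TMEM97. Capitals mark 2 motifs searched on both strands, the sterol element TCACNCCAC and the CCAAT box, which reads ATTGG on the other strand.
HMGCS1 promoter, chr5:43313363-43313662, minus strand: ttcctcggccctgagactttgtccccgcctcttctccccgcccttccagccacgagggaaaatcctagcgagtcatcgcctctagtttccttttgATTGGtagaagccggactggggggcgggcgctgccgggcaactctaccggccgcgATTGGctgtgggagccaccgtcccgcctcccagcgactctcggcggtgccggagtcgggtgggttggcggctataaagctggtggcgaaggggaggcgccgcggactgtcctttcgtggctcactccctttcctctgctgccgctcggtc
LSS promoter, chr21:46228725-46229024, minus strand: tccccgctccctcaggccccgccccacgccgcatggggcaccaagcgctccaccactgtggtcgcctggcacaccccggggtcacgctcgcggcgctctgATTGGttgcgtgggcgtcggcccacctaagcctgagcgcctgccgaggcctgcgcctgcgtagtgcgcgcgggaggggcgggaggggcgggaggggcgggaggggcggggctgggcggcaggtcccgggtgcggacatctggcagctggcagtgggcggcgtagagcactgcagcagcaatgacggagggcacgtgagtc
SREBF2 promoter, chr22:41832855-41833154, plus strand: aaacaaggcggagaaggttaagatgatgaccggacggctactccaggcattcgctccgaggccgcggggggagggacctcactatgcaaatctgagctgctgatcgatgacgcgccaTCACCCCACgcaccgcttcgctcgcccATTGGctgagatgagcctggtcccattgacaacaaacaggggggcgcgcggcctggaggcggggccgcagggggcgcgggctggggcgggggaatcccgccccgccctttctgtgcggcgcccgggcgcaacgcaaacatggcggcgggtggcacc
TMEM97 promoter, chr17:28318950-28319249, plus strand: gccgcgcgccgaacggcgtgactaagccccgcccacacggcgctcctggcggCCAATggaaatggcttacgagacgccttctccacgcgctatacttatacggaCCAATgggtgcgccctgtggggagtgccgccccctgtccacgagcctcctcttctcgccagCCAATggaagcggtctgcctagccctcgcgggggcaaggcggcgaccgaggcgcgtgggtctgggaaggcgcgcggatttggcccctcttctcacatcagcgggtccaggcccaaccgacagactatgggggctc
The sterol element was found in 396 of 35116 promoters (1.13%) and here only in that of SREBF2. The CCAAT box was found in 12155 of 35116 (34.6%), 3 times in the TMEM97 window and 2 times in the HMGCS1 window shown. A second HMGCS1 promoter, chr5:43313132-43313431, held 0 matches to either motif. A match is a string of letters and not a shown binding site, and no match says only that these letters are not in this window.

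Over all entries, 1402 of 12822 tested passed in SG12 against SGCTRL in LPDS (10.9%), by edgeR's quasi-likelihood test at an adjusted p under 0.05. Of these, 656 were higher (5.12%) and 746 lower (5.82%) in SG12. Among the 2826 genes read on the opposite strand, called source genes from here on, 604 passed (21.4%), of which 214 were higher (7.57%) and 390 lower (13.8%), with a median log2 fold change of -0.07. The 3 libraries of each group did not overlap at 1306 of these genes (46.2%), so a lack of overlap is common here. In FBS the same lines differed at 3234 entries (25.2%), and SGCTRL differed from parental cells in LPDS at 108 (0.842%). Of the source genes in LPDS, SG12 differed from parental cells at 440 (15.6%) and from SG21 at 966 (34.2%), and for 543 (19.2%) its difference from SGCTRL itself differed between LPDS and FBS. With a term for the library split, 181 entries passed in LPDS, 81 of them higher and 100 lower. That term rests on the 3 SG21 libraries in LPDS, the only group with libraries on both sides. Some calls were lost with the term at a similar value, as for PINK1 (-0.61, and -0.58 with the term). Others were lost at a far smaller one, as for UQCRB (1.87, and 0.05 with the term).

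TMEM97 (chr17:28319095-28328685, plus strand) was read over 361 bases at its 3' end through the entry of its neighbour IFT20. Its level was 164, 173 and 150.3 CPM in SGCTRL and 213, 192 and 179.6 CPM in SG12 in LPDS. The 3 SG12 libraries were thus the higher ones and the groups did not overlap, but the log2 fold change of 0.26 ± 0.12 (SE, n = 3 per group) had an adjusted p of 0.16 in edgeR's test. In FBS the same reading was lower in SG12 than in SGCTRL, at -1.30 ± 0.13, and the difference between the media was 1.57 ± 0.17 (adjusted p = 6.18e-08). SG21 in LPDS read 120.5 to 128 CPM, below SG12 by 0.66 on the log2 scale (adjusted p = 9.86e-05). A reading at the 3' end does not show whether the protein is made, so it does not check the knockout label in either direction. Reads on the TMEM97 entry itself, which belong mostly to IFT20, fell by 0.55 ± 0.14 on the log2 scale (adjusted p = 0.00893), although the fall was not called against parental cells (adjusted p = 0.162). NPC1, the cholesterol transporter that TMEM97 binds, read 79.6 to 92.3 CPM in SGCTRL and 73.2 to 96.3 CPM in SG12, with overlapping groups and an adjusted p of 0.932. PGRMC1, another partner of the sigma-2 receptor, had no reading.

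Genes of cholesterol synthesis moved in both directions in LPDS. Of 5 measured members of 22, 1 rose and 1 fell in SG12 (background 7.57% and 13.8%), and the median log2 fold change was 0.01, beside -0.07 over all source genes. HMGCS1, the cytosolic HMG-CoA synthase at the entry of the pathway, had 3965, 3992 and 3636 CPM in SGCTRL and 2483, 2823 and 2756 CPM in SG12. The SG12 libraries were all below the SGCTRL libraries, a fall of 0.52 ± 0.10 on the log2 scale (adjusted p = 4.33e-04). Against parental cells in LPDS, at 1920, 2368 and 2617 CPM, the same SG12 libraries were at 0.22 (adjusted p = 0.172), and SGCTRL was itself 0.75 above parental cells (adjusted p = 8.49e-05). The call on HMGCS1 thus turns on the control line, and with the split term it was also lost, at -0.32 (adjusted p = 0.455).

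IDI1, the isomerase that makes the activated isoprene unit, rose, with 408, 427 and 440.1 CPM in SGCTRL against 642, 604 and 688 CPM in SG12. Its log2 fold change was 0.60 ± 0.17 (adjusted p = 0.0149), 0.47 against parental cells (adjusted p = 0.0691), and it was not called without SG12 replicate 3 (adjusted p = 0.0585). Within SG21 in LPDS, IDI1 differed along the library split, with 487 CPM in replicate 1 and 245 and 225 CPM in replicates 2 and 3. The split term turned the value to -0.45 (adjusted p = 0.363). SGCTRL and parental cells in LPDS also lie on opposite sides of the split, and there SGCTRL was at -0.13 (adjusted p = 0.835).

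LSS, the lanosterol synthase, read 665, 638 and 625 CPM in SGCTRL and 679.9, 787 and 803 CPM in SG12. The groups did not overlap, but the difference of 0.24 ± 0.10 did not pass (adjusted p = 0.118). It passed against parental cells, at 0.65 (adjusted p = 1.51e-05), and with the split term, at 0.59 (adjusted p = 0.0423). ACAT2, which condenses acetyl-CoA, was at -0.04 and FDFT1, the squalene synthase, at 0.01, with adjusted p of 0.874 and 0.991.

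Of the genes of sterol uptake and SREBP control, 0 of 5 measured members of 24 passed in LPDS (background 21.4%). SREBF2 was at -0.06 (adjusted p = 0.809), SREBF1 at 0.40 (adjusted p = 0.170) and GRAMD1A, a carrier of cholesterol from the plasma membrane, at -0.09 (adjusted p = 0.861). A p above the threshold does not show that the lines were alike.

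**Figure D1:**
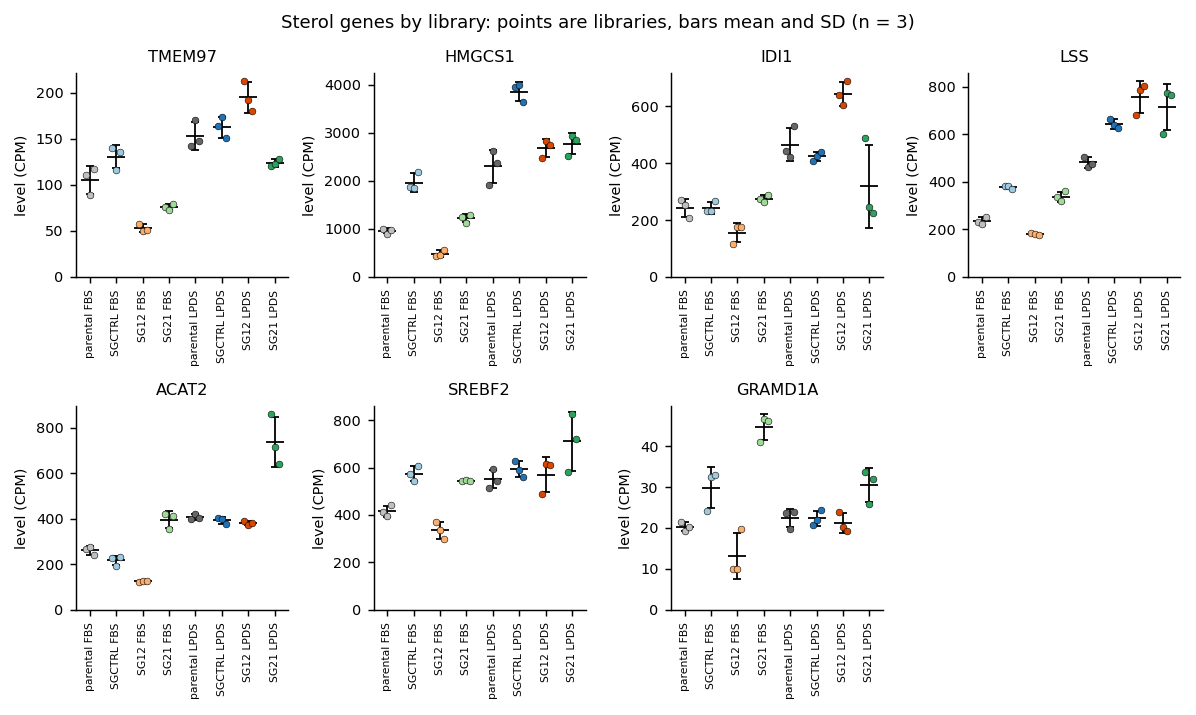
Level in CPM (y axis, from 0) of 7 sterol genes in the 3 libraries of each line and medium (x axis), with points for libraries and bars for mean and SD. SG12 lay lowest in FBS for each of the 7 genes by group mean, and in LPDS it lay among or above the other lines for all but ACAT2 and GRAMD1A, where its mean was again the lowest.

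For several sterol genes, the difference between SG12 and SGCTRL was not the same in the 2 media. In FBS, 4 of the 5 measured synthesis genes were lower in SG12 than in SGCTRL (background 20.7%), with a median of -0.79 on the log2 scale. HMGCS1 was at -2.02 in FBS and -0.52 in LPDS, and the test of that difference gave 1.50 ± 0.15 (adjusted p = 3.34e-09). The difference between media was 1.31 ± 0.14 for LSS, 1.24 ± 0.24 for IDI1 and 0.72 ± 0.15 for SREBF2, all called. SG12 and SGCTRL each keep their side of the library split in both media, so a term for the split cancels in the difference between media. That term therefore cannot check these differences. The count of entries that differ between media was 1331 (10.4%) without it and 1482 with it.

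**Figure D2:**
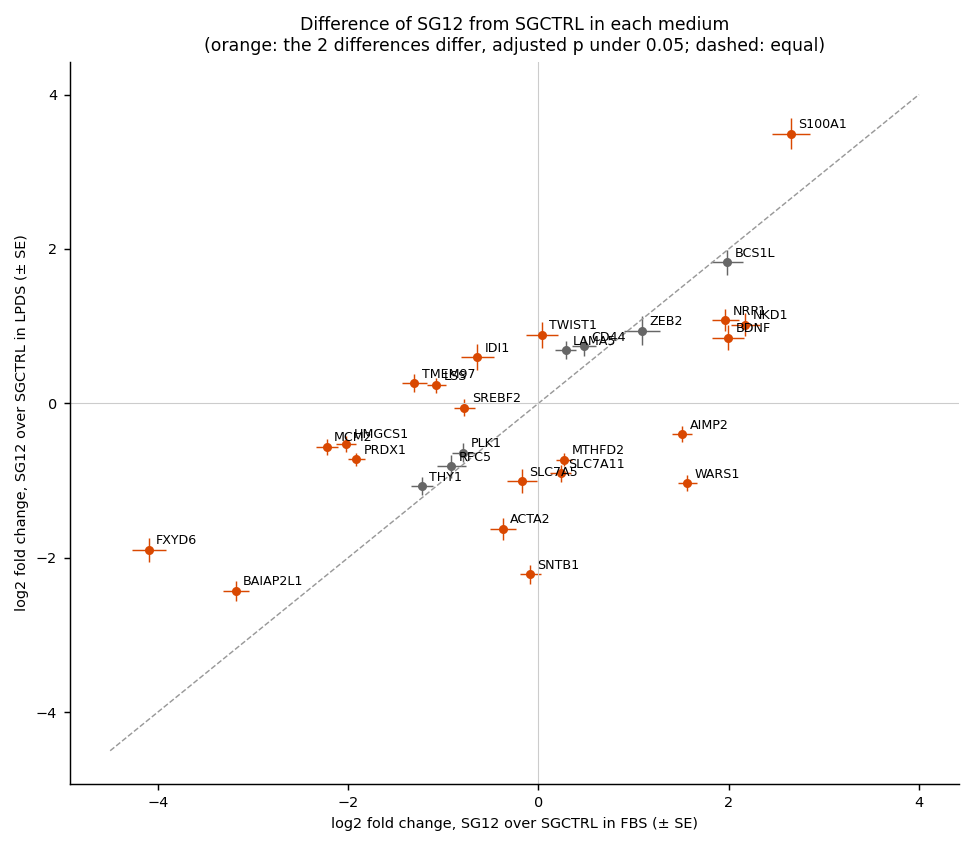
Log2 fold change of SG12 over SGCTRL in FBS (x axis) and in LPDS (y axis) for 28 genes, with SE bars, in orange where the difference between the media had an adjusted p under 0.05, and a dashed line where both are equal. The sterol genes lie above the line, WARS1, AIMP2 and SNTB1 far below it, and S100A1 and BAIAP2L1 are far from 0 in both media.

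Among other lipid genes, 3 of phospholipid metabolism fell in LPDS. In the list of fatty acid and glycerolipid synthesis, 2 of 10 measured members fell and 0 rose, with a median of -0.21, and a share of 2 in 10 is near the background of 13.8%. PCYT2, which makes the activated head group of phosphatidylethanolamine, read 245, 261 and 208 CPM in SGCTRL and 163, 166 and 182 CPM in SG12, a fall of 0.48 ± 0.13 on the log2 scale (adjusted p = 0.0138). PCYT1A, its counterpart for phosphatidylcholine, fell by 0.36 on the log2 scale (adjusted p = 0.0419), and LPCAT3, an LXR target that remodels phospholipids, fell by 0.32 (adjusted p = 0.0226). None of the 3 was called against parental cells (adjusted p 0.0750, 0.382 and 0.0750) or with the split term. The term put PCYT2 at 0.12, PCYT1A at -0.33 and LPCAT3 at -0.39. All 3 also lost their calls when some single libraries were left out, SGCTRL replicates 1 and 2 and SG12 replicate 2 among them for each (highest adjusted p 0.0984, 0.253 and 0.165). ACLY, the source of cytosolic acetyl-CoA, was at -0.17 (adjusted p = 0.248), and 0 of 5 genes of fatty acid oxidation and 0 of 6 of glycolysis passed (background 21.4%).

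Most measured genes of amino acid supply and of the integrated stress response were lower in SG12 in LPDS. This response acts through the factor ATF4, which raises genes of amino acid import, one-carbon metabolism and tRNA charging. Of 9 measured members of its list, 6 fell and 0 rose (background 13.8% and 7.57%), with a median of -0.55 on the log2 scale. SLC7A11, the cystine importer, had 392, 413 and 372 CPM in SGCTRL and 226, 215 and 187 CPM in SG12. It fell by 0.90 ± 0.11 on the log2 scale (adjusted p = 2.96e-07), with no overlap of the groups. MTHFD2, of mitochondrial one-carbon metabolism, had 2508, 2549 and 2343 CPM in SGCTRL and 1508, 1573 and 1379 CPM in SG12, a fall of 0.73 ± 0.08 (adjusted p = 4.66e-08). SLC7A5, an importer of large neutral amino acids, went from 1113, 1141 and 931 CPM to 555, 525 and 500.2 CPM, a fall of 1.01 ± 0.16 (adjusted p = 1.87e-05).

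These 3 genes were also lower against parental cells, at -0.66, -0.50 and -1.03, each called. With the split term, SLC7A11 (-0.83, adjusted p = 0.0135) and MTHFD2 (-0.66, adjusted p = 0.00614) still passed and SLC7A5 (-0.54, adjusted p = 0.380) did not. CEBPB, a factor induced in stress, fell by 1.06 on the log2 scale (adjusted p = 0.0161), ALDH1L2, of folate metabolism, by 0.55 (adjusted p = 0.0255), and VEGFA, the growth factor of vessels, by 0.31 (adjusted p = 0.0294). Of these, CEBPB turned to 0.49 with the split term, VEGFA was at 0.04 against parental cells, and each of the 3 lost its call when some single libraries were left out. SHMT2, another one-carbon enzyme, read at -0.02 (adjusted p = 0.932).

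Some genes of tRNA charging, led by WARS1, stood on opposite sides of SGCTRL in the 2 media. WARS1, the tryptophanyl-tRNA synthetase (chr14:100333788-100376805), had 585, 545 and 494 CPM in SGCTRL and 283, 274 and 237 CPM in SG12 in LPDS. Every SG12 library was below every SGCTRL library, a fall of 1.03 ± 0.10 on the log2 scale (adjusted p = 1.89e-09), with -0.89 against parental cells and -1.01 with the split term, both called. In FBS the same gene read 411, 415 and 431 CPM in SGCTRL and 1285, 1290 and 1141 CPM in SG12, a rise of 1.56 ± 0.10, so the difference between media was -2.60 ± 0.14 (adjusted p = 8.60e-16). AIMP2, a scaffold of the synthetase complex, likewise fell by 0.40 ± 0.10 in LPDS (adjusted p = 0.00750) and rose by 1.51 in FBS, although its call in LPDS was lost without SG12 replicate 3 or SGCTRL replicate 1 (highest adjusted p = 0.0827) and with the split term, at -0.33 (adjusted p = 0.455).

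Of the 6 measured charging genes, 2 fell and 0 rose in LPDS (background 13.8% and 7.57%), while 3 rose and 0 fell in FBS (background 20.1% and 20.7%). The median was 0.01 in LPDS and 0.54 in FBS, and 3 of the 6 (WARS1, AIMP2 and MARS1) differed between the media (background 19.2%). AIMP1, CARS1 and YARS1 did not pass that test (adjusted p 0.890, 0.174 and 0.453). MARS1, the methionyl-tRNA synthetase, was at -0.29 in LPDS (adjusted p = 0.172) and 0.84 in FBS. For the stress-response list, 6 fell in LPDS and 4 rose in FBS, where the median was 0.24. In LPDS, SG21 differed less from SGCTRL at WARS1 (-0.18, adjusted p = 0.297), SLC7A11 (-0.14, adjusted p = 0.495) and MTHFD2 (-0.08, adjusted p = 0.601), and the direct tests of SG12 against SG21 gave -0.85, -0.77 and -0.65, all called.

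**Figure D3:**
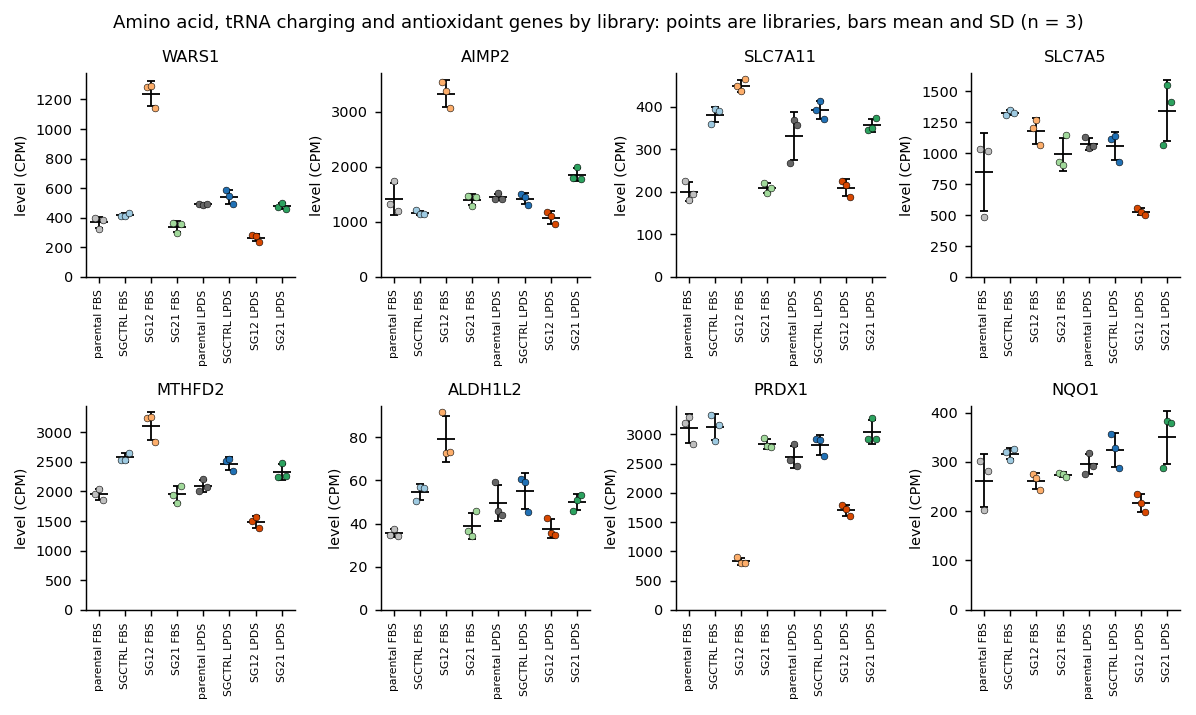
Level in CPM (y axis, from 0) of 8 genes of tRNA charging, amino acid supply and redox defence in the 3 libraries of each line and medium (x axis), with points for libraries and bars for mean and SD. WARS1 and AIMP2 stand highest in SG12 in FBS and lowest in SG12 in LPDS, and within LPDS the means of SLC7A11, SLC7A5 and MTHFD2 are lowest in SG12.

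Of 5 measured members of the iron and antioxidant list, 3 fell and 0 rose (background 13.8% and 7.57%), with a median of -0.58 on the log2 scale. SLC7A11, already counted above, is 1 of the 3. PRDX1, a peroxiredoxin, read 2913, 2910 and 2624 CPM in SGCTRL and 1787, 1717 and 1606 CPM in SG12. It fell by 0.73 ± 0.08 on the log2 scale (adjusted p = 1.14e-07) and was lower still in FBS, at -1.91. NQO1, a quinone reductase, fell by 0.58 ± 0.12 (adjusted p = 0.00120). PRDX1 passed with the split term, at -0.64 (adjusted p = 0.0104), and NQO1 did not, at -0.18. FTH1, the ferritin heavy chain, was at -0.21 (adjusted p = 0.111).

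Genes of the endoplasmic reticulum, the lysosome and mitochondrial upkeep gave smaller changes. Of 5 measured chaperone genes 3 fell and 0 rose (background 13.8% and 7.57%). They were CALR, the calcium-binding chaperone calreticulin (-0.51 ± 0.14, adjusted p = 0.0130), PDIA6, a disulfide isomerase (-0.34 ± 0.08, adjusted p = 0.00442), and EDEM1, of glycoprotein disposal (-0.64 ± 0.16, adjusted p = 0.00595). Of 5 measured lysosomal genes, the hydrolases CTSA (-0.49) and HEXA (-0.48) fell and the peptidase TPP1 (0.41) rose, beside the same background. TPP1 went the other way in SG21, at -0.55 against SGCTRL, and SG12 stood 0.96 above SG21 (adjusted p = 2.80e-07). PINK1, the kinase that marks damaged mitochondria, read 342, 328 and 293 CPM in SGCTRL and 185, 227 and 218 CPM in SG12, a fall of 0.61 ± 0.11 on the log2 scale (adjusted p = 1.04e-04). OPA1, of mitochondrial fusion, fell by 0.52 (adjusted p = 0.0416) and DNM1L, of fission, rose by 0.57 (adjusted p = 0.0372). In the citrate cycle 1 of 7 measured genes rose, IDH3G (0.39), and 1 fell, IDH3A (-0.39), which is near the background of 7.57% and 13.8%. Against parental cells IDH3G, IDH3A, EDEM1 and OPA1 were not called (adjusted p 0.183, 0.189, 0.0549 and 0.0644). DNM1L was not called against them either, at 0.14 on the log2 scale. None of the genes named here passed with the split term. HEXA (-0.15), TPP1 (0.21), DNM1L (0.11) and EDEM1 (-0.40) moved nearer to 0 with it. CALR (-0.49), PDIA6 (-0.42), CTSA (-0.51), PINK1 (-0.58), OPA1 (-0.52), IDH3G (0.46) and IDH3A (-0.60) kept a similar size or grew. CALR, HEXA, TPP1, OPA1, DNM1L, IDH3G and IDH3A also lost their calls when some single libraries were left out (highest adjusted p 0.0862, 0.0725, 0.192, 0.253, 0.229, 0.0868 and 0.103).

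In the respiratory chain list, levels moved along with the library split as well as with the line. Of 10 measured members, 3 rose and 0 fell (background 7.57% and 13.8%), with a median of 0.24. UQCRB, a subunit of complex III, had 81.9, 81.2 and 89.1 CPM in SGCTRL and 307, 294 and 323 CPM in SG12, a log2 fold change of 1.87 ± 0.24 (adjusted p = 6.99e-07). Parental cells in LPDS read 225, 231 and 216 CPM, and SGCTRL stood below them by -1.41 (adjusted p = 0.00133). In SG21 in LPDS, replicate 1, on the same side of the split as SG12, read 293 CPM, and replicates 2 and 3, on the side of SGCTRL, read 89.7 and 76.3 CPM.

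ATP5ME, a subunit of ATP synthase, had 92.3 to 109.5 CPM in SGCTRL, 326 to 449.8 CPM in SG12, and 253, 85.7 and 70.8 CPM in the 3 SG21 libraries. UQCRQ, of complex III, was at 0.77 (adjusted p = 3.88e-05). With the split term the values were 0.05 for UQCRB, 0.17 for ATP5ME and 0.22 for UQCRQ (adjusted p 0.953, 0.860 and 0.702). Against parental cells, which lie on the same side of the split as SG12, ATP5ME passed (0.81, adjusted p = 0.0219), and UQCRB (0.46, adjusted p = 0.217) and UQCRQ (0.13, adjusted p = 0.580) did not. Calls were also lost with the term for TMA7, a translation-associated protein (1.56, and 0.06 with the term), the ribosomal protein gene RPS23 (0.49, and -0.15), and HMGN3, LARP7 and UFC1 (1.20, 1.15 and 1.25, and 0.11, 0.18 and 0.29). The entry MT-ND6, the mitochondrial gene on the light strand, was read under its own name. Because most counts lie on the other strand, its reads may not belong to that gene. It had 77.9, 70.8 and 101 CPM in SGCTRL and 2009, 936 and 1635 CPM in SG12 in LPDS. It was not called with the term (adjusted p = 0.596), and in FBS its SG12 libraries ranged from 202 to 1383 CPM. Parental cells in LPDS read 293, 190.7 and 258 CPM there, and SG12 stood above them by 2.63 (adjusted p = 0.00160), as it did for LARP7 by 0.62 (adjusted p = 0.0228). BCS1L, an assembly factor of complex III, differed from these genes, with 38.5 to 46 CPM in SGCTRL and 125 to 165 CPM in SG12. Its log2 fold change of 1.83 ± 0.16 (adjusted p = 1.66e-10) was 1.79 with the split term (adjusted p = 7.32e-04), and SG21 in LPDS read 33.5 to 48.1 CPM on both sides of the split.

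**Figure D4:**
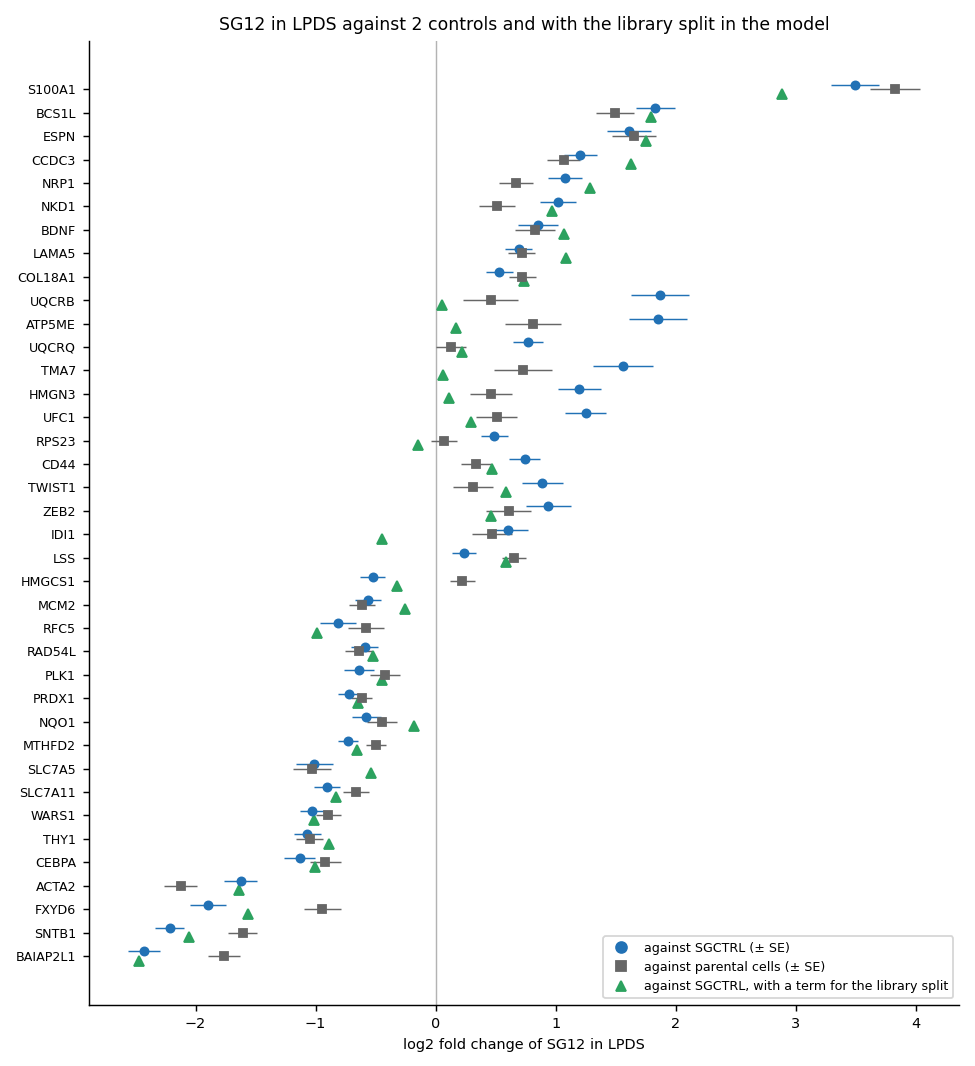
Log2 fold change of SG12 in LPDS (x axis) for 38 genes, against SGCTRL (circles, SE bars), against parental cells (squares, SE bars) and against SGCTRL with a term for the library split (triangles). UQCRB, ATP5ME, UQCRQ, TMA7, HMGN3 and UFC1 move to near 0 with the term, and S100A1, BCS1L, WARS1, ACTA2, SNTB1 and BAIAP2L1 stay far from 0 under all 3.

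Some genes of DNA replication, repair and mitosis fell in SG12 in LPDS. Of 9 replication genes 2 fell, of 6 genes of homologous recombination 2 fell, and of 4 mitosis genes 2 fell, with 0 rising (background 13.8% lower), and the medians were -0.25, -0.36 and -0.16. The counts are small, and that of the replication genes is near the background. MCM2, of the replicative helicase, read 570.4, 593 and 468 CPM in SGCTRL and 423, 351 and 329 CPM in SG12, a fall of 0.56 ± 0.11 on the log2 scale (adjusted p = 2.79e-04). RFC5, of the clamp loader, fell by 0.81 ± 0.15 (adjusted p = 1.85e-04), RAD54L, a recombination motor, by 0.59 ± 0.11 (adjusted p = 3.14e-04), and FANCI, of crosslink repair, by 0.42 ± 0.11 (adjusted p = 0.0108). PLK1, the mitotic kinase, fell by 0.64 ± 0.12 (adjusted p = 3.98e-04) and CCNA2, cyclin A2, by 0.42 ± 0.13 (adjusted p = 0.0324). Of these 6, RFC5 passed with the split term, at -0.99 (adjusted p = 0.0331), and all but CCNA2 passed against parental cells. The term put MCM2 at -0.26, RAD54L at -0.52, FANCI at -0.62, PLK1 at -0.45 and CCNA2 at -0.49. FANCI and CCNA2 lost their calls when some single libraries were left out (highest adjusted p 0.101 and 0.137).

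The other knockout line went the opposite way in replication and repair. Against the same SGCTRL libraries, SG21 was at 0.94 for MCM2, 0.45 for RFC5, 0.60 for RAD54L and 0.42 for FANCI, each called, and 7 of 9 replication genes were higher in it (background 10.8%). The direct test of SG12 against SG21 gave -1.50 ± 0.11 for MCM2 (adjusted p = 3.26e-13) and -1.19 ± 0.11 for RAD54L (adjusted p = 3.37e-10). In FBS, MCM2 and RAD54L stood further below SGCTRL in SG12 than in LPDS, at -2.22 and -2.09. Of 5 p53 targets, 0 passed in LPDS (background 21.4%).

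Of 8 measured genes of the mesenchymal programme, 3 rose and 0 fell in SG12 (background 7.57% and 13.8%), with a median of 0.49. TWIST1, a transcription factor of that programme, had 43.6, 44.9 and 54.3 CPM in SGCTRL and 83.7, 92.7 and 89.8 CPM in SG12, a rise of 0.89 ± 0.17 (adjusted p = 3.41e-04). ZEB2, another such factor, rose by 0.94 ± 0.19 (adjusted p = 5.75e-04) and CD44, the hyaluronan receptor, by 0.74 ± 0.13 (adjusted p = 8.17e-05). VIM, the intermediate filament of mesenchymal cells, read 22810 to 29640 CPM in SGCTRL and 26870 to 33240 CPM in SG12, which overlap (adjusted p = 0.202), and ZEB1 (0.98), SPARC (0.03), AXL (0.03) and TGFB1 (-0.52) did not pass either. Against parental cells, ZEB2 passed (0.61, adjusted p = 0.0322) and TWIST1 (0.31) and CD44 (0.34) did not. With the split term none of the 3 passed, at 0.46 for ZEB2, 0.58 for TWIST1 and 0.47 for CD44. In SG21, TWIST1 and CD44 lay below SGCTRL, at -1.02 and -0.96, and SG12 stood above SG21 by 1.91 and 1.70.

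Genes of guidance, contraction and matrix differed in whether they passed with the split term. NRP1, a receptor of semaphorins and VEGF, had 79.2, 80.6 and 80.4 CPM in SGCTRL and 168, 172 and 167 CPM in SG12. The libraries of each group lay close together and far apart from the other group, a rise of 1.08 ± 0.14 (adjusted p = 1.14e-06), and 1.29 with the split term (adjusted p = 0.00868). BDNF, a neurotrophin, rose by 0.85 ± 0.16 (adjusted p = 4.01e-04) and NKD1, an inhibitor of WNT signalling, by 1.02 ± 0.15 (adjusted p = 8.90e-06). With the split term their values were 1.07 and 0.97, and neither passed (adjusted p 0.0955 and 0.0902). All 3 stood higher still in FBS, at 1.97, 2.00 and 2.18, and NRP1 and NKD1 were lower in SG21 than in SGCTRL in LPDS, at -0.83 and -0.87.

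ACTA2, smooth muscle actin, had 195, 188 and 168 CPM in SGCTRL and 51.6, 59.5 and 67.4 CPM in SG12, a fall of 1.62 ± 0.14 on the log2 scale (adjusted p = 9.31e-11). It was lower in SG21 as well, at -1.76, and in FBS it was at -0.38. THY1, a surface glycoprotein of stromal cells, went from 534, 543 and 444 CPM to 248, 247 and 228 CPM, a fall of 1.07 ± 0.11 (adjusted p = 1.22e-08). Both passed with the split term and against parental cells. Of the YAP and TEAD targets, CRIM1 (-0.84) and AMOTL1 (-0.71) fell, 2 of 3 measured (background 13.8%). Neither passed with the split term, at -0.37 and -0.43. In the matrix list 2 of 9 rose (background 7.57%). They were LAMA5, a laminin chain (0.69 ± 0.11, adjusted p = 3.09e-05), and COL18A1, a basement membrane collagen (0.53 ± 0.11, adjusted p = 0.00110). Both passed with the term and against parental cells.

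**Figure D5:**
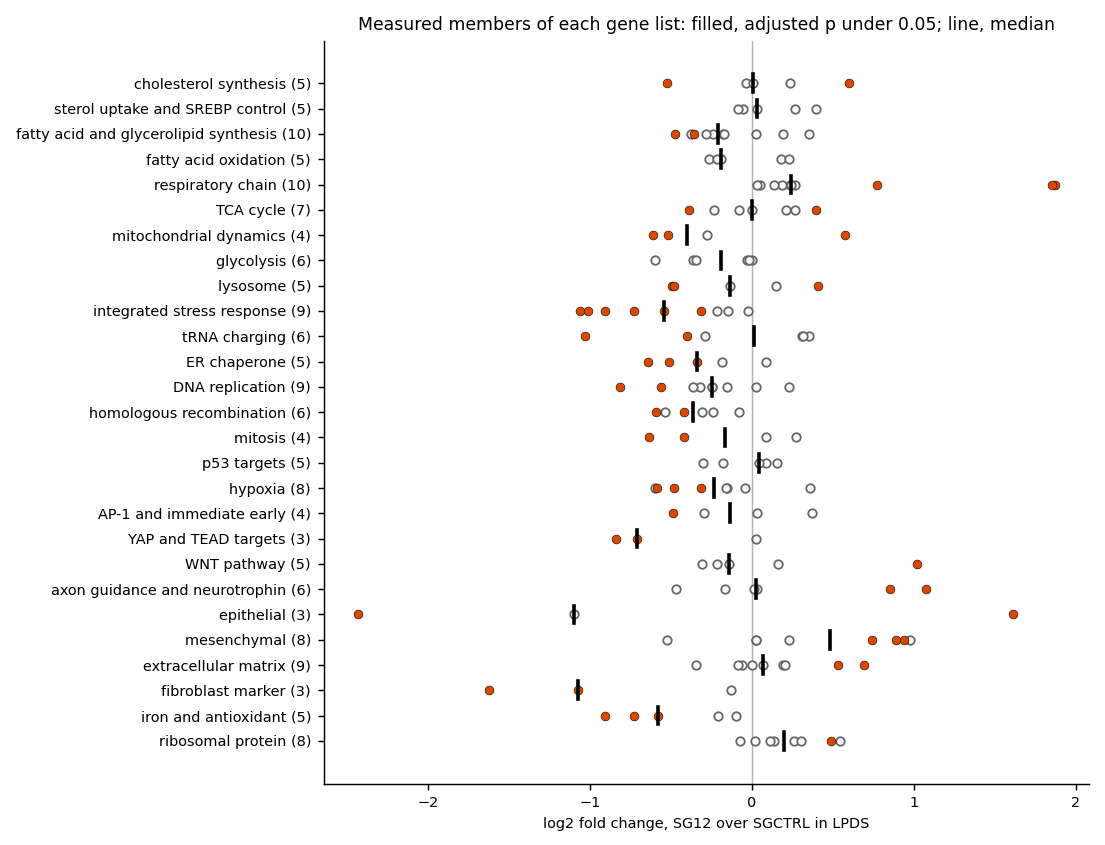
Log2 fold change of SG12 over SGCTRL in LPDS (x axis) for each measured gene, by list (y axis, with the number measured), filled where the adjusted p was under 0.05, with a line at the list's median. The stress-response and antioxidant lists lie mostly left of 0, and the sterol lists lie around it.

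Several of the largest differences in LPDS were also present in FBS. S100A1, a calcium-binding protein (chr1:153627926-153632039), read 18.8, 22.1 and 18.2 CPM in SGCTRL and 213, 235 and 214 CPM in SG12, which is 11.2-fold higher (log2 3.49 ± 0.20, adjusted p = 6.37e-16). It overlaps S100A13 on the other strand, and the counts alone do not separate the pair. BAIAP2L1, an actin regulator of epithelial cells (chr7:98291651-98401068), went from 166, 156 and 147 CPM to 24.9, 33.8 and 28.3 CPM, a fall of 2.43 ± 0.13 on the log2 scale (adjusted p = 2.61e-16). In FBS they were at 2.65 and -3.18. FXYD6, a regulator of the sodium pump, fell by 1.90 ± 0.15 in LPDS and 4.09 in FBS. ESPN, an actin bundler, rose by 1.61 ± 0.18 and CCDC3, a secreted protein, by 1.21 ± 0.14, and both did so in SG21 as well, at 1.17 and 1.72. CEBPA, a transcription factor of differentiation, fell by 1.13 ± 0.13 (adjusted p = 6.63e-08). All 6 passed with the split term.

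SNTB1, a syntrophin of the membrane cytoskeleton, differed between SG12 and SGCTRL in LPDS and not detectably in FBS. It read 227, 238 and 231 CPM in SGCTRL and 46.9, 49.0 and 53.7 CPM in SG12 in LPDS, a fall of 2.22 ± 0.12 on the log2 scale (adjusted p = 3.02e-16). In FBS the SG12 libraries read 232, 191 and 187 CPM, beside 208 to 221 CPM in SGCTRL, at -0.09 (adjusted p = 0.629). The difference between media was -2.13 ± 0.17 (adjusted p = 9.11e-12), and the fall in LPDS passed with the split term, at -2.06, and against parental cells, at -1.61.

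Under their own names, YKT6 and TNFAIP2 were well read in SGCTRL and close to empty in SG12. KRR1 and BLK were close to empty in SG12 as well, but low in SGCTRL. Their means in LPDS were 2.20 and 3.21 CPM in SGCTRL and 0.217 and 0.326 CPM in SG12. YKT6, a membrane fusion protein, read 48.0, 59.1 and 52.2 CPM in SGCTRL and 0.315, 0 and 1.30 CPM in SG12 in LPDS (adjusted p = 2.00e-16), with 48.3 to 59.5 CPM in parental cells and 45.5 to 53.8 CPM in SG21. TNFAIP2, induced by tumour necrosis factor, read 53.4, 54.5 and 47.3 CPM in SGCTRL and 0.315, 0.676 and 0 CPM in SG12, but 12.3 to 14.6 CPM in parental cells and 0.371 to 2.57 CPM in SG21. With the split term YKT6 passed (adjusted p = 4.07e-12) and TNFAIP2 did not (adjusted p = 0.393). In FBS SG12 read 1.23 to 2.26 CPM for YKT6 and 0 to 1.29 CPM for TNFAIP2. Since most counts lie on the other strand, these reads may not belong to the named genes.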

How the data were processed

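The authors deposited 1 table of raw read counts per library, whole numbers per gene name with 5 closing entries for reads not assigned. Per the labels' protocols, 100 ng of total RNA entered a stranded Illumina library kit (Stranded Total RNA Prep) after ribosomal RNA depletion. Per the submitters' processing notes, bcl2fastq and STAR were used with hg38. Which program counted the reads, on which strand and with which annotation, is not given in the sources used here.

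Counts of all 24 libraries were fitted in R 4.3.3 with edgeR 4.0.16 (limma 3.58.1), with 1 mean per line and medium, 16 residual degrees of freedom, TMM scaling and filterByExpr, which left 12822 entries. Quasi-likelihood F tests were adjusted per comparison (Benjamini-Hochberg), with 0.05 as the threshold on the adjusted p. Standard errors are back-calculated from the F statistic and are approximate. Levels are CPM of reads on genes. The test was tried on simulated counts first.

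Entries were matched to GENCODE release 29 (56714 of 61578 matched). A source gene lies on the strand opposite to the entry, overlaps its exons by at least 50 bases and makes up at least 80% of such overlap. It was used above 6.07 CPM and named for size above 50.4 CPM, the 90th and 99th percentiles over 13063 protein-coding entries that no gene lies opposite to. Entries whose own gene was estimated to give over 50% of the reads were set aside (13 genes). Where genes overlap, some reads may belong to the neighbour.

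The libraries, the 36 gene lists (30 with a measured member) and the naming rule were chosen with earlier results of these data known. The rule names TMEM97, IFT20, NPC1 and PGRMC1, all measured genes of the 2 sterol lists, up to 6 passing members of every other list, the 12 largest rises and falls of source genes with groups apart, and the 6 largest each way under their own names; genes given beyond it, such as MARS1, SHMT2, FTH1, ACLY and VIM, were chosen after their values were seen, and some named genes are left out for length. A few genes are not reported here and were taken out of their lists before counting. The interferon, TNF, gastric, leukocyte, endothelial and mitochondrial genome lists had no measured member, and lists with fewer than 3 measured genes are not described. Beside 7.57% higher and 13.8% lower over all source genes, lists not counted above gave these calls in LPDS. Of 8 hypoxia genes 3 fell, of 8 ribosomal protein genes 1 rose, and of 6 guidance and neurotrophin genes 2 rose. Of 5 WNT genes 1 rose, of 4 AP-1 genes 1 fell, and of 3 epithelial genes 1 rose and 1 fell. Of 3 fibroblast genes 2 fell, and of 4 mitochondrial dynamics genes 1 rose and 2 fell. VEGFA is in both the stress-response and hypoxia lists.

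Alternatives were DESeq2 1.42.0 (size factors and Wald test), other count filters, a fit of only the compared groups, a block for the replicate number, parental cells in place of SGCTRL, unique alignments as library size, a library-split term, and fits that omit 1 library. Same-numbered samples did not deviate together (correlations -0.02, 0.01 and 0.00), so the numbers were not taken as pairs.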

Additional observations from a re-analysis of the deposited data

Results flagged for a closer look

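For 37 named genes, SG12 stood differently to SGCTRL in LPDS than in FBS by the test of that difference itself (adjusted p under 0.05 in edgeR). Over all source genes, 543 of 2826 (19.2%) passed it. Most named genes were chosen for passing in LPDS, and the difference holds the same LPDS libraries, so the count of 37 says nothing about these genes as a set. Each value in brackets is the log2 fold change in LPDS minus that in FBS. At the TMEM97 locus the differences were TMEM97 (1.57) and its neighbour IFT20 (-0.75). Among sterol and phospholipid genes they were HMGCS1 (1.50), IDI1 (1.24), LSS (1.31), ACAT2 (0.75), SREBF2 (0.72), GRAMD1A (1.11) and PCYT2 (1.55). Among genes of amino acid supply, tRNA charging, redox defence and organelles they were PINK1 (-0.48), TPP1 (-0.60), MTHFD2 (-1.001), SLC7A11 (-1.14), SLC7A5 (-0.84), ALDH1L2 (-1.08), VEGFA (-0.89), WARS1 (-2.60), AIMP2 (-1.91), PDIA6 (0.39) and PRDX1 (1.19). Among genes of replication, cell state and the largest changes they were MCM2 (1.66), RAD54L (1.50), CCNA2 (0.65), P4HA2 (-1.14), CRIM1 (-0.66), NKD1 (-1.16), NRP1 (-0.89), BDNF (-1.14), BAIAP2L1 (0.75), ESPN (-0.80), TWIST1 (0.85), COL18A1 (0.73), ACTA2 (-1.25), S100A1 (0.84), SNTB1 (-2.13), FXYD6 (2.20) and HSD17B12 (-0.85).

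For 13 named genes, SG12 and SG21 stood on opposite sides of SGCTRL in LPDS, each called, and differed from each other in the direct test. Both share the SGCTRL libraries, and the values are the log2 fold change of SG12 over SG21. Most named genes were chosen for passing in SG12 against SGCTRL, so the count of 13 says nothing about these genes as a set. Over all source genes, SG12 differed from SG21 at 966 of 2826 (34.2%). SG12 was the higher line for TPP1 (0.96), NKD1 (1.89), NRP1 (1.91), CD44 (1.70), TWIST1 (1.91) and S100A1 (4.36). It was the lower line for AIMP2 (-0.79), RFC5 (-1.26), MCM2 (-1.50), RAD54L (-1.19), FANCI (-0.84), FXYD6 (-2.41) and CEBPA (-1.79). Of the SG21 libraries, replicate 1 lies on the SG12 side of the library split and replicates 2 and 3 do not, and its part in these differences was not tested.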

How the results depend on the processing

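The count of entries that pass in SG12 against SGCTRL in LPDS (1402) was 181 with a term for the library split, 81 higher and 100 lower, and 1499 with the replicate number as a block, which changed no call of a named gene. A fit of the compared groups alone gave 2088 passing and 993 higher. Leaving out 1 library gave 890 to 1120 passing, 450 to 522 higher and 426 to 598 lower, lowest without SGCTRL replicate 1. Entries differing between media (1331) were 953 to 1705 with 1 library left out. Those differing from parental cells (1243) were 538 to 1224, lowest without parental replicate 2. Those differing from SG21 (2343) were 1667 to 2339, 1101 with the split term and, chosen after seeing the data, 1040 with SG21 replicate 1 alone. With parental cells as control HMGCS1 (0.22), VEGFA (0.0381) and P4HA2 (0.0530) turned, and with the split term IDI1 (-0.45), PCYT2 (0.12), CEBPB (0.49), JUNB (0.15), RPS23 (-0.15) and PNN (-0.33) did. The cause was not tested. Of 84 called named genes, 21 passed with the split term, 53 against parental cells, 68 to 76 with a library left out, 76 without a count filter, 83 with a floor of 1 CPM in 3 libraries, and all 84 with DESeq2 size factors, DESeq2's test, the block or all unique reads as library size. Counting depth was 3.05 to 5.54 M reads.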
